A study of Homo sapiens with 18 samples.

Results

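Transcripts of 54 genes listed as mitotic regulators were followed after daphnetin treatment of A2780 and SKOV3, 2 human cell lines from ovarian cancers. Among them were cyclins, kinases, checkpoint and kinetochore proteins, spindle proteins and their transcription factors. Some were grouped only as chromosome structure and other genes, such as the DNA helicase PIF1. The genes were chosen by symbol, with earlier results of these data known, from a written list that leaves out the kinesins named KIF. All 54 were found among the 56303 genes of the deposited count table. Daphnetin is a plant dihydroxycoumarin, and the series was made to look for transcripts and pathways tied to its effects on ovarian cancer cells. Each line had 3 groups of 3 libraries, given the solvent DMSO or a dose of 20 or 40 mg/L, which made 18 libraries. The labels give neither line an engineered change, calling both wild type, and give no treatment time. They list a pair of culture media beside the pair of lines, so line and medium cannot be told apart. The labels number the replicates without saying that they were separate cultures, and p-values therefore reflect the spread between libraries alone, possibly a technical one.

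Cells enter mitosis when cyclin B activates the kinase CDK1, with Polo and Aurora kinases driving spindle assembly. The kinetochore ties each chromosome to spindle microtubules, and a checkpoint holds back the ubiquitin ligase APC/C until every chromosome is attached; then securin and cyclin B are destroyed, the chromatids part and the cell divides. Many of these genes are transcribed together late in the cycle under the factors MYBL2 and FOXM1 and are silenced in resting cells by the DREAM complex, which reaches promoters through a short element called CHR, often near a CCAAT box. In RNA from a whole culture, fewer cells in mitosis and less RNA per cell cannot be told apart.

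Promoter windows from RefSeq (GRCh38.p14, 250 bases before to 50 after each gene start) were available for 47 of the 54 genes, 58 windows in all because 7 genes had several. No window was used for TTK, TPX2, AURKA, UBE2C, CDCA2, FOXM1 and BIRC5. A CHR, spelled TTTGAA or TTCGAA on either strand, occurred in 39 of the 58 windows (67.24%) and in 16.35% of all 35116 windows of the same length. A CCAAT box, spelled CCAAT on either strand, occurred in 44 (75.86%) against 34.61% of all windows, and both motifs stood together in 34 (58.62%) against 6.38%. A CHR that began between 40 bases before and 20 after the start was found in 28 windows (48.28%) and in 3.41% of all windows. E2F sites, searched as TTTCCCGC, TTTGGCGC, TTTGCCGC and TTTCGCGC on both strands, were in 4 windows (6.9%) against 3.31%. None of these motifs lies within another, although neighbouring matches can share end letters, and a match is letters in a window, not a shown binding site. The following stretches of 160 bases, from 140 before to 20 after the start on the gene's strand, show 8 members chosen after their values were seen; capitals mark CHR and CCAAT letters, or their reverse complement. The stretches of PLK1 (chr16:23678749-23678908, plus strand), PIF1 (chr15:64825628-64825787, minus strand), CCNB1 (chr5:69167010-69167169, plus strand), DLGAP5 (chr14:55191566-55191725, minus strand), HMMR (chr5:163460492-163460651, plus strand) and BUB1 (chr2:110678044-110678203, minus strand) come from genes among the lowest in SKOV3 at 40 mg/L, all of which also fell in A2780. That of NUSAP1 (chr15:41332741-41332900, plus strand) comes from a gene with opposite responses, and that of MYBL2 (chr20:43666974-43667133, plus strand) from the gene with the smallest change in SKOV3 at 40 mg/L.
PLK1: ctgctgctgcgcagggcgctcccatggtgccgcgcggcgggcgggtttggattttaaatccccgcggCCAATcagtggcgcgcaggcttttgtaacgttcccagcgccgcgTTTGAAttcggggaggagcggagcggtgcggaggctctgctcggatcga
PIF1: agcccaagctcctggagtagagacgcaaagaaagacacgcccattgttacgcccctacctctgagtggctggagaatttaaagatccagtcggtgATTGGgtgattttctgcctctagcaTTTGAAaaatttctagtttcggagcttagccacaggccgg
CCNB1: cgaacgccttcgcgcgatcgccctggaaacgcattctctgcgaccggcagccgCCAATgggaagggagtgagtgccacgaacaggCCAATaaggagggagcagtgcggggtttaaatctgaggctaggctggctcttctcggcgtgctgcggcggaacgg
DLGAP5: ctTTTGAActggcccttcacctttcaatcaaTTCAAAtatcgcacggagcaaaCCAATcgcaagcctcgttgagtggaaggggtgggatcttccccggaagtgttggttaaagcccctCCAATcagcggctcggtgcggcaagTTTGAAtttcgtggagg
HMMR: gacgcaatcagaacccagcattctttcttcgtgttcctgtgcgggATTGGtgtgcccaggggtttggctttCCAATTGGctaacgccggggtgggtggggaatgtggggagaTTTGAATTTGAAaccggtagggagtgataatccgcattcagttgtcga
BUB1: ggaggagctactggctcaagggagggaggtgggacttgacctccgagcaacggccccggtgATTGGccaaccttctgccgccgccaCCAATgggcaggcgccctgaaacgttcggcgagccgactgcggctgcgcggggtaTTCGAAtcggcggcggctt
NUSAP1: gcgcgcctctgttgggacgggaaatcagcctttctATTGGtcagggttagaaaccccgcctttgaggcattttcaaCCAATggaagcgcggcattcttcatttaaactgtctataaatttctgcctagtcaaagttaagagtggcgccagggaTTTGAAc
MYBL2: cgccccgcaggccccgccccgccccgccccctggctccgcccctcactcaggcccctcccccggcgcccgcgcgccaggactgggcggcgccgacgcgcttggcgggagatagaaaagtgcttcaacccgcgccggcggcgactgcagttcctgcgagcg

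Counted from the RefSeq start, the CHR began at -29 in PLK1 and at -20 in PIF1. In BUB1 and NUSAP1 it lay after that start, at 1 and 13. RefSeq starts can differ from the deposited gene coordinates given below, where PLK1 begins at 23677656, before its whole stretch. As spelled here, the CCNB1 stretch held CCAAT boxes and no CHR, and the MYBL2 stretch held neither motif. Other spellings of either motif were not searched. At 40 mg/L the 36 genes with a CHR so spelled in a window had a median log2 change of -0.68 in A2780 and -1.66 in SKOV3. The 11 without such a spelling had -0.78 and -1.36. This is a description with no test.

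The A2780 libraries held 30016475 to 37220879 counts each and the SKOV3 libraries 35105152 to 44132931. The lowest count of any of the 54 genes was 28, for PIF1 in a SKOV3 library at 40 mg/L. All 54 passed the filter on low counts in every fit. ERBB2, which is amplified in SKOV3, averaged 65.7 CPM (counts relative to library size, TMM-scaled within a line) in A2780 DMSO libraries and 2734 CPM in SKOV3. The epithelial keratin genes KRT7 and KRT18 and the lineage factor PAX8 averaged under 1 CPM in A2780 DMSO libraries, where 3 of 8 epithelial and ovarian markers reached 1 CPM, against 7 of 8 in SKOV3. Of 5 immune markers only CD68 reached 1 CPM in any group, and PTPRC was below that everywhere. For 7 fibroblast and endothelial markers, the summed CPM was 150.6 to 168.9 in A2780 DMSO libraries, 126.2 to 149.8 at 20 mg/L and 124.7 to 140.5 at 40 mg/L, and 750.9 to 795.4, 614.4 to 646.6 and 502.8 to 532.4 in SKOV3. At 40 mg/L decorin, DCN, was the 1 marker called lower in A2780, of 4 tested. In SKOV3 all 5 tested were lower (-0.28 for COL1A1, -0.93 for COL1A2, -1.10 for DCN, -1.66 for LUM and -1.75 for PECAM1). The part of these markers in the results was not tested. Mitochondrial shares overlapped between the groups of each line, at 10.603% to 16.511% in A2780 and 4.361% to 5.235% in SKOV3.

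In DMSO the 54 genes were expressed at very different levels and mostly more in SKOV3. Per length, on the RPKM scale over all 18 libraries, A2780 had its lowest level in DEPDC1B (2.08) and its highest in CENPF (147), with a median of 15.7. SKOV3 had its lowest level in BORA (2.12) and its highest in TOP2A (176), with a median of 24.8. Compared directly, 38 genes were higher in SKOV3 and 14 lower (41.2% and 37.2% of all genes tested), with 11 at least 2-fold higher (24.6%). The phosphatase CDC25B, which removes the inhibitory phosphates from CDK1, differed most (log2 2.83, SE 0.06, adjusted p = 1.26e-33), followed by NUSAP1 (2.07), CDK1 (2.06) and MYBL2 (1.79). ASPM, a spindle pole protein, was the only member at least 2-fold lower in SKOV3 (21.4% of all genes; log2 -1.34, SE 0.06, adjusted p = 4.03e-22).

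Most of the 54 transcripts were lower after daphnetin in both lines. The dose course looked different in each, a difference that was not tested. In A2780, 46 fell and 3 rose at 20 mg/L (18.9% and 18% of all genes tested were called lower and higher; median log2 change of the members -0.62, of all genes 0.01). Without DMSO replicate 1 these counts were 42 and 5. At 40 mg/L 46 fell and 5 rose (19.2% and 17.7%; medians -0.71 and -0.01), or 45 and 3 without 40 mg/L replicate 1. In SKOV3, 46 fell and none rose at 20 mg/L (4.95% and 5.16%; median -0.51), and 53 fell at 40 mg/L (25.6%; median -1.66), where MYBL2 alone was not called. Decreases of at least 2-fold numbered 11 and 15 in A2780 (1.59% and 2.42% of all genes) and 3 and 47 in SKOV3 (0.232% and 6.59%). All 3 treated libraries lay below all 3 DMSO libraries for 45 members at each dose in A2780 (23.1% and 24.5% of all genes) and for 48 and 53 in SKOV3 (13.4% and 28.4%). The members took 0.6914% to 0.7306% of a library's counts in A2780 DMSO, 0.4581% to 0.5246% at 20 mg/L and 0.473% to 0.5062% at 40 mg/L. In SKOV3 their share went from 0.8981% to 0.9412% in DMSO to 0.645% to 0.6889% at 20 mg/L and 0.2903% to 0.3201% at 40 mg/L, with no overlap between the 3 groups. In some groups the members also shifted together by library. In A2780 at 20 mg/L, 48 lay below their group mean in replicate 3 and 5 in replicate 1. In SKOV3 at 40 mg/L, 50 did so in replicate 2 and 8 in replicate 3. The counts of members are therefore not separate observations.

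**Figure D1:**
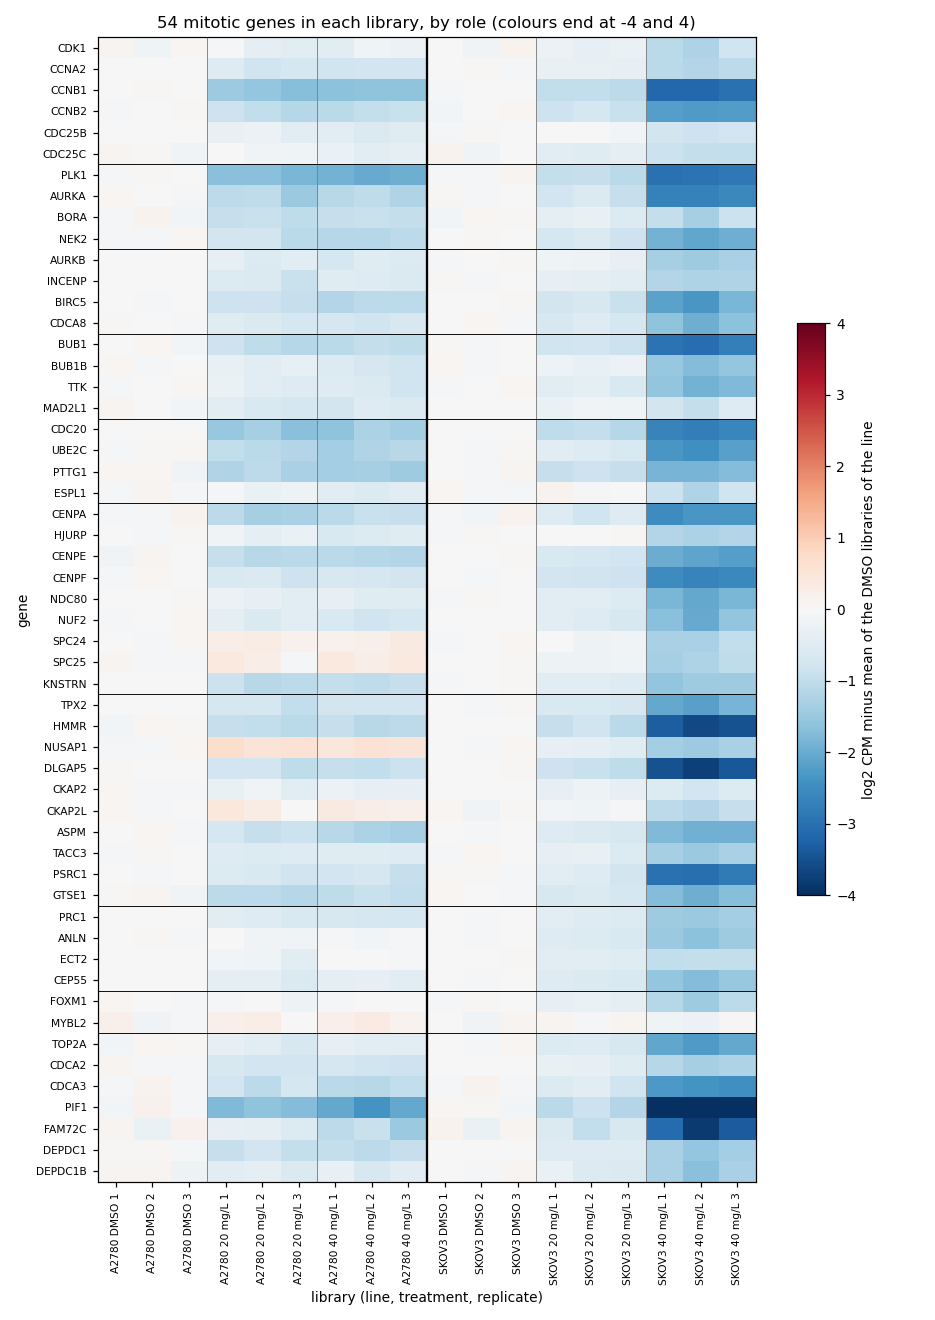
Log2 level of each of the 54 genes (rows, grouped by role) in each of the 18 libraries (columns), relative to the mean of the 3 DMSO libraries of the same line; colours end at -4 and 4, and PIF1 at 40 mg/L in SKOV3 lies beyond that. The 3 SKOV3 libraries at 40 mg/L are the darkest, with a median over the genes of -1.58, -1.80 and -1.56.

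The dose course was tested within each line by comparing 40 with 20 mg/L. In A2780, 45 genes were lower than DMSO at both doses, and for 35 of these the difference between the doses was not called. A further fall was called for 10 and a rise for 1, ECT2 (7.85% and 6.71% of all genes were called lower and higher). The rise of ECT2 (log2 0.21, SE 0.07, adjusted p = 0.0464) was lost without replicate 3 of DMSO, 3 of 20 mg/L or any replicate of 40 mg/L (adjusted p from 0.0611 to 0.327). The 10 were PLK1, NEK2, BIRC5, BUB1B, ESPL1, HJURP, NUF2, ASPM, PIF1 and FAM72C. Of the 54 genes, 7 were called without replicate 1 at 20 mg/L (6 lower), 6 without replicate 2 at 40 mg/L and 7 without replicate 3 at 40 mg/L, in both cases all lower. In SKOV3 all 54 genes were lower at 40 than at 20 mg/L (24.2% of all genes, with 23.2% higher), 32 of them at least 2-fold (5.37%), with a median log2 step of -1.14.

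**Figure D2:**
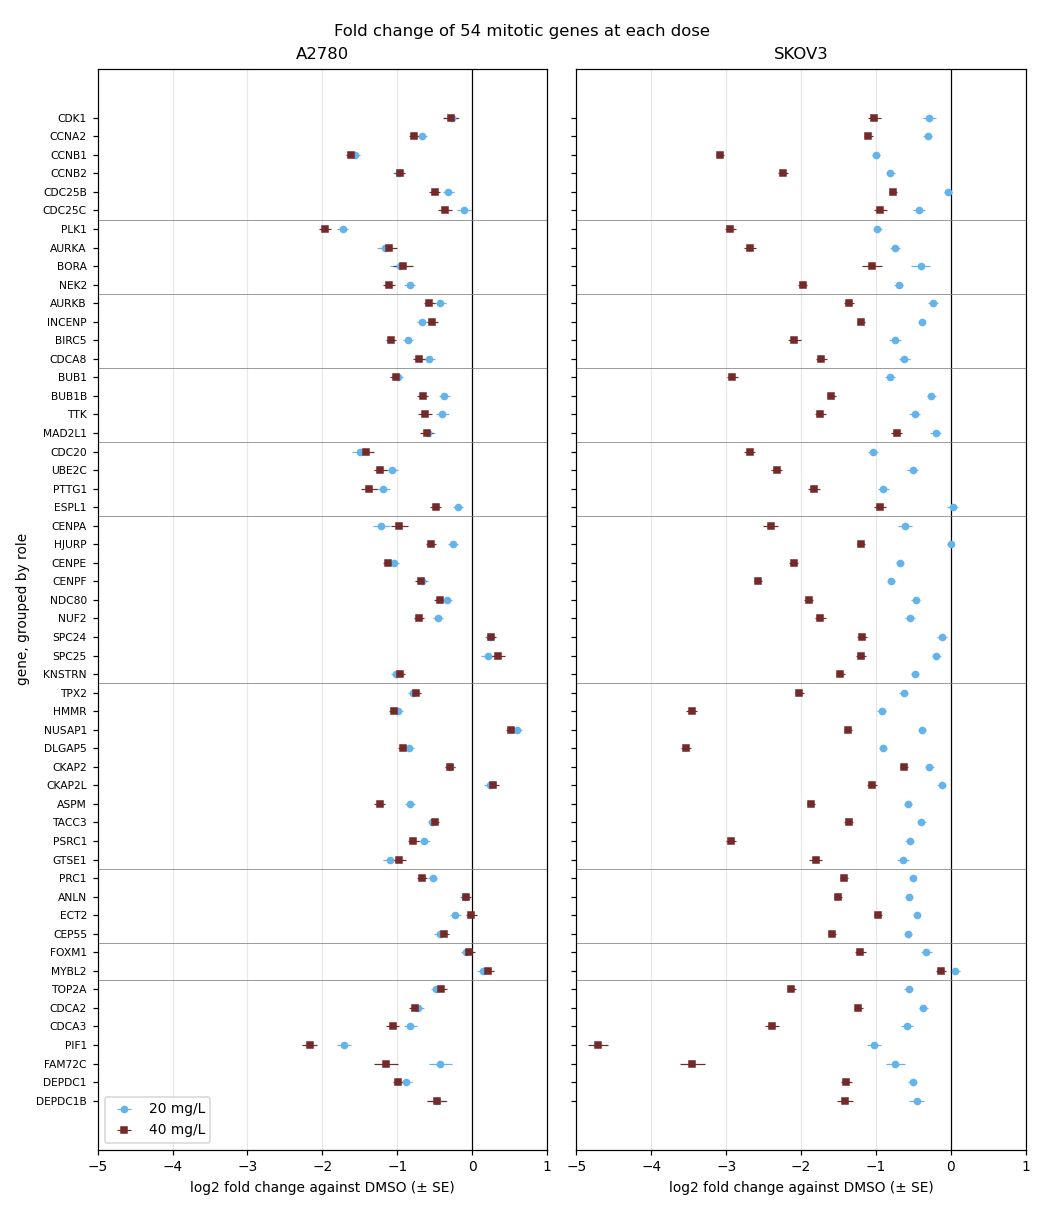
Log2 fold change against DMSO (x axis) of each of the 54 genes (y axis, grouped by role) in A2780 (left) and SKOV3 (right); circles are 20 mg/L, squares 40 mg/L and bars the SE. The 2 doses lie close together in A2780 (medians -0.62 and -0.71), and in SKOV3 every square lies left of its circle (medians -0.51 and -1.66).

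The 6 members grouped as CDK1, its cyclins and its activators all fell at 40 mg/L in both lines. Cyclin B1 had a much lower fold change than its kinase in each line. CCNB1, the B-type cyclin that activates CDK1 (chromosome 5, 69167010 to 69178245), measured in A2780 153, 158 and 151 CPM in DMSO, 56.0, 52.9 and 47.1 at 20 mg/L, and 49.6, 50.2 and 50.2 at 40 mg/L. Both treated groups lay well below DMSO and close to each other (log2 -1.56, SE 0.07, adjusted p = 1.78e-16 at 20 mg/L and log2 -1.62, SE 0.07, adjusted p = 5.18e-17 at 40 mg/L). In SKOV3 CCNB1 measured 187, 193 and 193 CPM in DMSO, 96.2, 97.4 and 91.9 at 20 mg/L, and 21.6, 21.8 and 24.3 at 40 mg/L. There the 3 groups did not overlap, and 40 mg/L was 8.47-fold below DMSO (log2 -3.08, SE 0.06, adjusted p = 1.33e-29). CDK1 itself (chromosome 10, 60778331 to 60794852) measured 34.6, 28.4 and 34.4 CPM in DMSO, 31.6, 25.0 and 24.1 at 20 mg/L, and 23.7, 28.7 and 27.4 at 40 mg/L in A2780. Those ranges overlapped, and the small decreases at 20 mg/L (log2 -0.27, SE 0.10, adjusted p = 0.0349) and 40 mg/L (log2 -0.29, SE 0.10, adjusted p = 0.0262) were fragile. The first lost its call without replicate 1 or 3 of DMSO or replicate 2 or 3 of 20 mg/L (adjusted p from 0.116 to 0.178). The second lost it without replicate 1 or 3 of DMSO or of 40 mg/L (adjusted p from 0.0505 to 0.142). In SKOV3, where CDK1 was 2.06 higher on the log2 scale in DMSO, it measured 130.0, 119 and 145 CPM in DMSO, 111, 104.4 and 109 at 20 mg/L, and 62.6, 56.1 and 75.7 at 40 mg/L. The 40 mg/L libraries were clearly the lowest (2.03-fold lower, log2 -1.02, SE 0.09, adjusted p = 1.5e-08), while the call at 20 mg/L (log2 -0.29, SE 0.08, adjusted p = 0.0395) was lost without replicate 1 or 3 of DMSO or any replicate of 20 mg/L (adjusted p from 0.0824 to 0.135). In the pairs of log2 changes that follow, here and for later genes, the first value is A2780 and the second SKOV3, both at 40 mg/L against DMSO. The second B-type cyclin, CCNB2, fell in both lines (-0.97 and -2.24), as did CCNA2, the cyclin of S phase and G2 (-0.78 and -1.11). The CDK1-activating phosphatases CDC25B (-0.50 and -0.78) and CDC25C (-0.36 and -0.94) had smaller decreases, and CDC25B was not called in SKOV3 at 20 mg/L (-0.03).

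All 4 genes of the Polo, Aurora A and NEK2 group were called lower at both doses in both lines. PLK1, the Polo kinase of mitotic entry, centrosomes and kinetochores (chromosome 16, 23677656 to 23690367), measured 61.0, 65.0 and 63.9 CPM in DMSO, 19.9, 19.8 and 17.6 at 20 mg/L, and 16.9, 15.5 and 16.2 at 40 mg/L in A2780. It had the lowest fold change of all 54 genes at 20 mg/L in this line (log2 -1.73, SE 0.08, adjusted p = 1.78e-16), and the further step to 40 mg/L was small (log2 -0.24, SE 0.08, adjusted p = 0.0406) and no longer called without replicate 3 of DMSO, 1 or 2 of 20 mg/L or 2 or 3 of 40 mg/L (adjusted p from 0.0535 to 0.172). In SKOV3 PLK1 measured 71.1, 73.2 and 80.6 CPM in DMSO, 38.5, 39.4 and 35.7 at 20 mg/L, and 9.34, 9.68 and 10.3 at 40 mg/L. All 3 groups stood apart there, and at 40 mg/L the level was 7.69-fold lower than in DMSO (log2 -2.94, SE 0.07, adjusted p = 4.7e-27). Of the exonic bases of PLK1, 12.857% overlap genes on the opposite strand, whose reads cannot be set apart without knowing the strand setting. AURKA, the Aurora kinase of the spindle poles (chromosome 20, 56369389 to 56392337), measured 36.6, 35.1 and 32.9 CPM in DMSO, 16.9, 17.2 and 12.3 at 20 mg/L, and 16.1, 17.3 and 15.2 at 40 mg/L in A2780. The 2 doses overlapped and lay far below DMSO (log2 -1.11, SE 0.10, adjusted p = 5e-10 at 40 mg/L). In SKOV3 AURKA measured 47.8, 45.2 and 47.0 CPM in DMSO, 27.7, 31.1 and 24.6 at 20 mg/L, and 7.10, 7.05 and 7.72 at 40 mg/L. The drop was larger there at 40 mg/L (log2 -2.68, SE 0.08, adjusted p = 3.33e-24). BORA, the cofactor by which Aurora A activates PLK1, fell as well (-0.92 and -1.05), but 37.002% of its exonic bases overlap DIS3 on the other strand. The call of BORA at 20 mg/L in SKOV3 (log2 -0.40, SE 0.12, adjusted p = 0.0336) was lost without replicate 2 or 3 of DMSO or 1 or 3 of 20 mg/L (adjusted p from 0.0858 to 0.161). The centrosome kinase NEK2 fell more in SKOV3 than in A2780 (-1.11 and -1.98, difference log2 -0.90, SE 0.11, adjusted p = 7.59e-09).

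The chromosomal passenger complex, which corrects wrong attachments and later guides cleavage, fell as a whole. Its kinase AURKB (chromosome 17, 8204733 to 8210600) measured 42.1, 43.1 and 43.1 CPM in DMSO, 34.0, 29.6 and 31.8 at 20 mg/L, and 26.4, 30.7 and 29.3 at 40 mg/L in A2780. The DMSO libraries were nearly identical, and all treated ones lay below them (log2 -0.43, SE 0.08, adjusted p = 4.07e-05 and log2 -0.57, SE 0.08, adjusted p = 5.82e-07). In SKOV3 AURKB measured 30.3, 30.7 and 32.2 CPM in DMSO, 27.5, 26.8 and 25.0 at 20 mg/L, and 12.3, 11.5 and 12.6 at 40 mg/L. The 20 mg/L libraries lay just under the DMSO range (log2 -0.23, SE 0.07, adjusted p = 0.0195, not called without DMSO replicate 3, adjusted p = 0.101, or 20 mg/L replicate 3, adjusted p = 0.121), and the 40 mg/L libraries were far below (log2 -1.36, SE 0.07, adjusted p = 1.87e-17). The other 3 subunits also fell in both lines. They were survivin, BIRC5 (-1.08 and -2.09), borealin, CDCA8 (-0.71 and -1.73), and the scaffold INCENP (-0.53 and -1.20).

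In the spindle assembly checkpoint the kinases had much lower fold changes than the effector MAD2L1 in SKOV3, a contrast between genes that was not tested. BUB1, a kinetochore kinase that recruits the checkpoint (chromosome 2, 110637698 to 110678114), measured 74.3, 77.2 and 67.8 CPM in DMSO, 41.1, 35.9 and 33.0 at 20 mg/L, and 34.2, 37.6 and 36.3 at 40 mg/L in A2780. Treated libraries of both doses overlapped, well below DMSO (log2 -1.02, SE 0.08, adjusted p = 1.55e-11 at 40 mg/L). In SKOV3 BUB1 measured 56.1, 50.9 and 54.6 CPM in DMSO, 31.2, 31.4 and 29.5 at 20 mg/L, and 6.94, 6.43 and 8.09 at 40 mg/L. It reached 7.56-fold below DMSO (log2 -2.92, SE 0.08, adjusted p = 1.11e-25). MAD2L1, the protein that inhibits CDC20 when kinetochores are unattached (chromosome 4, 120055608 to 120067074), measured 31.0, 28.2 and 26.3 CPM in DMSO, 20.7, 18.8 and 17.3 at 20 mg/L, and 17.0, 20.1 and 19.0 at 40 mg/L in A2780. It fell there at both doses (log2 -0.59, SE 0.09, adjusted p = 4.7e-06 and log2 -0.61, SE 0.09, adjusted p = 2.97e-06). In SKOV3 MAD2L1 measured 32.9, 32.0 and 32.0 CPM in DMSO, 26.6, 29.0 and 28.5 at 20 mg/L, and 19.5, 16.6 and 22.6 at 40 mg/L. At 20 mg/L it missed the threshold (log2 -0.20, SE 0.08, adjusted p = 0.0868) but passed when 40 mg/L replicate 2 or 3 was left out (adjusted p = 0.0417 and 0.035), and at 40 mg/L it fell (log2 -0.72, SE 0.08, adjusted p = 1.13e-09). The checkpoint kinase TTK (-0.63 and -1.74) and the checkpoint protein BUB1B (-0.66 and -1.60) fell in both lines. BUB1B shares 10.21% of its exonic bases with a same-strand readthrough gene.

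Genes of the metaphase to anaphase switch were among the most lowered in A2780. CDC20, the APC/C activator that the checkpoint restrains (chromosome 1, 43358955 to 43363203), measured 27.4, 28.2 and 27.3 CPM in DMSO, 9.68, 11.1 and 8.55 at 20 mg/L, and 9.10, 11.5 and 10.5 at 40 mg/L in A2780. The doses overlapped, and both were far below DMSO (log2 -1.50, SE 0.10, adjusted p = 1.56e-12 and log2 -1.41, SE 0.10, adjusted p = 4.78e-12). In SKOV3 CDC20 measured 46.8, 47.97 and 48.1 CPM in DMSO, 23.7, 24.6 and 21.3 at 20 mg/L, and 7.45, 7.01 and 7.80 at 40 mg/L. It had the lowest fold change of the members at 20 mg/L in this line (log2 -1.03, SE 0.07, adjusted p = 7.87e-14) and fell further at 40 mg/L (log2 -2.68, SE 0.07, adjusted p = 5.01e-25). Securin, PTTG1, the inhibitor of separase, fell in both lines (-1.38 and -1.83), and so did UBE2C, the ubiquitin-conjugating enzyme of the APC/C (-1.22 and -2.33). Separase itself, ESPL1, had a smaller decrease (-0.49 and -0.95) and was not called in SKOV3 at 20 mg/L (0.02).

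**Figure D3:**
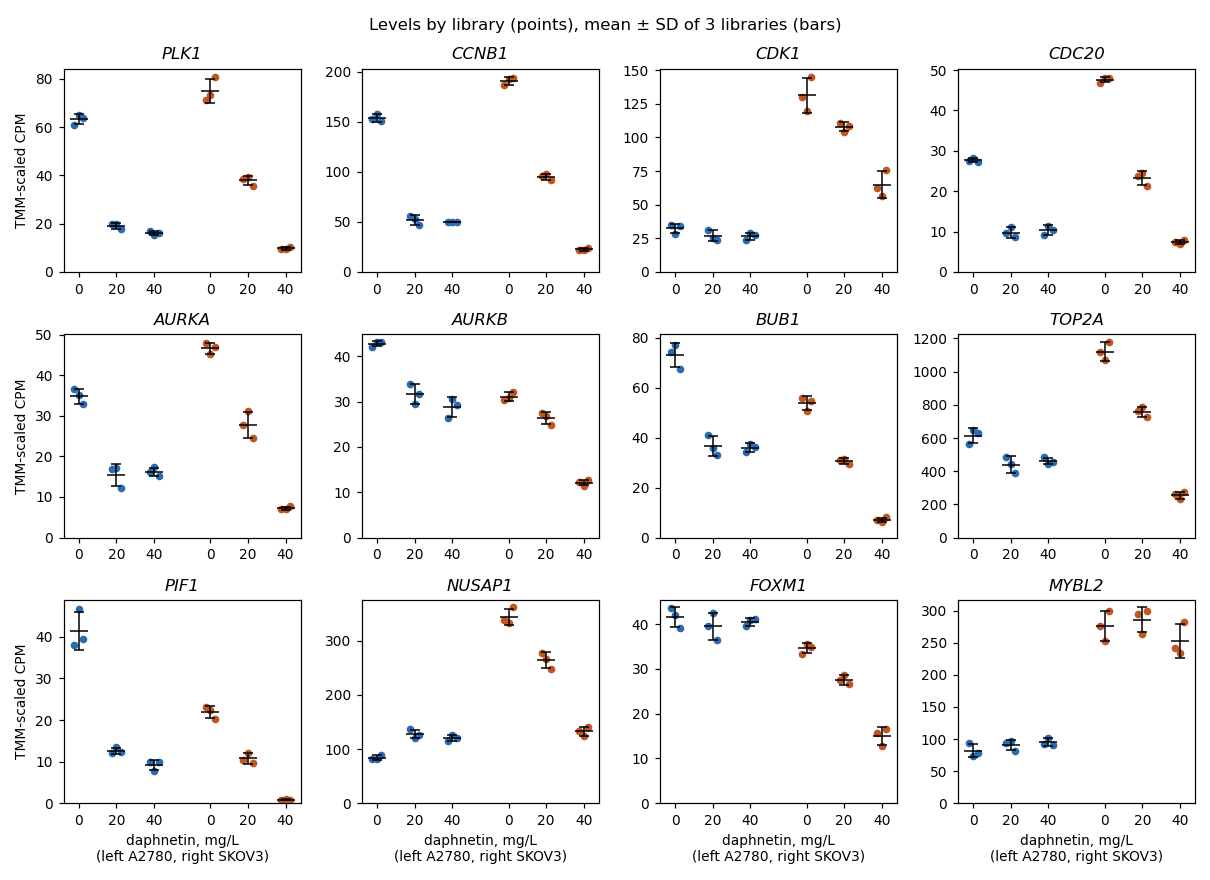
TMM-scaled CPM (y axis, from 0) of 12 members in each library, by dose, A2780 in blue and SKOV3 in orange; points are libraries and bars the mean ± SD of 3. In SKOV3 the 40 mg/L points lie below the other groups for CCNB1, PLK1, BUB1 and PIF1, and MYBL2 points overlap between groups.

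The 9 centromere and kinetochore genes split in A2780 and fell together in SKOV3. CENPA, the histone that marks centromeres (chromosome 2, 26764289 to 26801067), measured 14.0, 14.5 and 16.3 CPM in DMSO, 7.25, 5.93 and 6.05 at 20 mg/L, and 7, 8.04 and 7.76 at 40 mg/L in A2780. It was lower at both doses (log2 -1.22, SE 0.11, adjusted p = 8.55e-10 and log2 -0.97, SE 0.11, adjusted p = 4.57e-08), and the step between the doses was not called (log2 0.24, SE 0.12, adjusted p = 0.17), although it was the highest of any member in this line. In SKOV3 CENPA measured 19.1, 18.2 and 21.4 CPM in DMSO, 13.6, 11.1 and 13.8 at 20 mg/L, and 3.39, 3.86 and 3.82 at 40 mg/L. All 3 groups were apart (log2 -2.41, SE 0.10, adjusted p = 1.2e-19 at 40 mg/L). CENPE, a kinesin motor that moves chromosomes to the spindle equator, fell in both lines (-1.12 and -2.10). So did CENPF, a large protein of the outer kinetochore (-0.68 and -2.58). The 4 subunits of the NDC80 complex, which grips microtubule ends, did not move as one in A2780. NDC80 (-0.43) and NUF2 (-0.71) fell there at 40 mg/L. Their partners SPC24 (0.25, SE 0.07, adjusted p = 0.00392) and SPC25 (0.35, SE 0.09, adjusted p = 0.00392) rose. In SKOV3 all 4 fell at 40 mg/L (-1.90, -1.74, -1.19 and -1.20). At 20 mg/L there, SPC24 (-0.12) and SPC25 (log2 -0.19, SE 0.06, adjusted p = 0.0517) were not called, although SPC25 was without any 1 replicate of 40 mg/L (adjusted p from 0.0163 to 0.0471). HJURP, the chaperone that loads CENPA (-0.55 and -1.20), and the kinetochore protein KNSTRN (-0.97 and -1.47) fell too, although HJURP was not called in SKOV3 at 20 mg/L (adjusted p = 0.978).

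Spindle and microtubule proteins held the clearest exception. NUSAP1, which bundles microtubules near chromosomes (chromosome 15, 41332694 to 41381050), measured 81.6, 81.5 and 89.6 CPM in DMSO, 136, 121 and 126 at 20 mg/L, and 114, 126 and 121 at 40 mg/L in A2780. Every treated library exceeded every DMSO library (log2 0.60, SE 0.07, adjusted p = 2.64e-08 and log2 0.52, SE 0.07, adjusted p = 3.89e-07), the largest rise of any member at both doses. In SKOV3, where the DMSO level was 2.07 higher on the log2 scale, NUSAP1 measured 338, 333 and 362 CPM in DMSO, 277, 267 and 248 at 20 mg/L, and 133, 125 and 141 at 40 mg/L. It fell at both doses there (log2 -0.38, SE 0.05, adjusted p = 3.86e-06 and log2 -1.37, SE 0.06, adjusted p = 2.16e-20). CKAP2L, a spindle protein, also rose slightly in A2780 (0.28, SE 0.08 at 40 mg/L, adjusted p = 0.00877, 0.0543 without 40 mg/L replicate 1) and fell in SKOV3 (-1.05). DLGAP5, which stabilises kinetochore fibres (chromosome 14, 55148112 to 55191678), measured 87.0, 82.7 and 83.8 CPM in DMSO, 49.5, 49.2 and 41.9 at 20 mg/L, and 44.2, 42.8 and 46.6 at 40 mg/L in A2780. Both doses lay well below DMSO (log2 -0.92, SE 0.07, adjusted p = 1.96e-11 at 40 mg/L). In SKOV3 DLGAP5 measured 154, 157 and 162 CPM in DMSO, 88.4, 85.2 and 78.9 at 20 mg/L, and 14.0, 11.8 and 15.03 at 40 mg/L. The 40 mg/L level was 11.6-fold below DMSO (log2 -3.54, SE 0.07, adjusted p = 2.42e-29), and of all 54 genes this one had the lowest difference between the lines. HMMR, a spindle pole and hyaluronan-binding protein (-1.04 and -3.46), and PSRC1, a microtubule regulator (-0.78 and -2.94), had the next lowest values within this group in SKOV3. TPX2, which activates Aurora A on microtubules, fell in both lines (-0.75 and -2.03), as did the spindle pole protein ASPM (-1.23 and -1.86), GTSE1, a microtubule-binding protein (-0.97 and -1.80), and TACC3, which binds clathrin on kinetochore fibres (-0.50 and -1.36). CKAP2 fell least in SKOV3 within this group (-0.30 and -0.62).

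Of the 4 cytokinesis genes, 2 fell in A2780 and all 4 in SKOV3 at 40 mg/L. ANLN, which organises the contractile ring, was not called in A2780 at 20 mg/L (-0.10) or 40 mg/L (-0.08). In SKOV3 it fell (-0.56 at 20 mg/L and -1.51 at 40 mg/L). ECT2, the exchange factor that activates RhoA at the division plane, was lower in A2780 at 20 mg/L (-0.22, SE 0.07, adjusted p = 0.017, lost without replicate 1 or 3 of DMSO or 3 of 20 mg/L, adjusted p from 0.0516 to 0.159) and not called at 40 mg/L (-0.01), and fell in SKOV3 (-0.46 and -0.97). PRC1, which bundles midzone microtubules (-0.67 and -1.43), and the abscission protein CEP55 (-0.38 and -1.59) fell in both lines.

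The transcription factors of this programme moved little in A2780. FOXM1 (chromosome 12, 2857681 to 2877155) measured 43.7, 42.0 and 39.2 CPM in DMSO, 39.6, 42.4 and 36.5 at 20 mg/L, and 39.5, 40.9 and 41.1 at 40 mg/L in A2780. The 3 groups overlapped, and neither dose was called (log2 -0.08, SE 0.07, adjusted p = 0.452 and log2 -0.04, SE 0.07, adjusted p = 0.709). In SKOV3 FOXM1 measured 33.4, 35.6 and 35.0 CPM in DMSO, 27.5, 28.7 and 26.5 at 20 mg/L, and 15.7, 12.8 and 16.6 at 40 mg/L. It fell at both doses (log2 -0.33, SE 0.07, adjusted p = 0.00183 and log2 -1.21, SE 0.08, adjusted p = 2.35e-15). ITFG2, on the other strand, overlaps 15.942% of the FOXM1 exonic bases. MYBL2 (chromosome 20, 43667019 to 43716496) measured 93.9, 73.6 and 78.5 CPM in DMSO, 93.2, 97.0 and 81.9 at 20 mg/L, and 93.0, 102 and 90.7 at 40 mg/L in A2780. The treated libraries reached the top of the DMSO range, and a small rise was called at 40 mg/L (log2 0.22, SE 0.08, adjusted p = 0.0372) but not at 20 mg/L (log2 0.15, SE 0.08, adjusted p = 0.166). The call at 40 mg/L was lost without replicate 2 or 3 of DMSO or 1 or 2 of 40 mg/L (adjusted p from 0.0621 to 0.178), the change at 40 mg/L came to 0.33 without DMSO replicate 1, and without that library the rise at 20 mg/L was called (adjusted p = 0.00915). In SKOV3 MYBL2 measured 276, 252 and 299 CPM in DMSO, 294, 263 and 299 at 20 mg/L, and 242, 233 and 283 at 40 mg/L. All 3 groups overlapped there, with no call at 20 mg/L (log2 0.05, SE 0.07, adjusted p = 0.733) or 40 mg/L (log2 -0.13, SE 0.07, adjusted p = 0.114). It was called lower at 40 mg/L without DMSO replicate 2 (adjusted p = 0.0246) or 40 mg/L replicate 3 (adjusted p = 0.00346), and its step between the doses (log2 -0.18, SE 0.07, adjusted p = 0.0293) was lost without replicate 1 or 3 of 20 mg/L or 1 or 2 of 40 mg/L (adjusted p from 0.097 to 0.173).

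Of the remaining genes, PIF1 moved most of all. PIF1 encodes a DNA helicase (chromosome 15, 64815632 to 64825668) and measured 38.0, 46.6 and 39.4 CPM in DMSO, 12.1, 13.5 and 12.4 at 20 mg/L, and 9.83, 7.84 and 9.94 at 40 mg/L in A2780. The groups stood apart and the second dose took it lower (log2 -2.17, SE 0.10, adjusted p = 3.08e-16 against DMSO, log2 -0.46, SE 0.10, adjusted p = 0.00295 between doses). In SKOV3 PIF1 measured 23.1, 22.5 and 20.2 CPM in DMSO, 10.4, 12.1 and 9.78 at 20 mg/L, and 0.776, 0.977 and 0.753 at 40 mg/L. At 40 mg/L it was 26.1-fold below DMSO (log2 -4.71, SE 0.13, adjusted p = 5.4e-25). FAM72C (chromosome 1, 143955364 to 143971965) belongs to a family of near-identical copies whose reads may be shared, so its values are uncertain. It measured 7.41, 5.68 and 7.83 CPM in DMSO, 5.46, 5.37 and 4.70 at 20 mg/L, and 3.31, 3.66 and 2.41 at 40 mg/L in A2780. The decrease at 20 mg/L was small (log2 -0.43, SE 0.15, adjusted p = 0.0273) and not called without replicate 1 or 3 of DMSO or of 20 mg/L (adjusted p from 0.0506 to 0.161). It had the largest further fall of any member between the doses in this line (log2 -0.73, SE 0.16, adjusted p = 0.00256). In SKOV3 FAM72C measured 11.2, 8.39 and 10.97 CPM in DMSO, 6.77, 5.10 and 6.48 at 20 mg/L, and 1.15, 0.667 and 0.968 at 40 mg/L. It was lowest at 40 mg/L (log2 -3.45, SE 0.17, adjusted p = 3.03e-18). TOP2A, the topoisomerase that untangles sister chromatids (chromosome 17, 40388516 to 40417950), measured 562, 647 and 633 CPM in DMSO, 488, 444 and 389.5 at 20 mg/L, and 485, 444 and 456 at 40 mg/L in A2780. The treated ranges lay below DMSO (log2 -0.41, SE 0.08, adjusted p = 6.43e-05 at 40 mg/L). In SKOV3 TOP2A measured 1118, 1068 and 1178 CPM in DMSO, 763, 785 and 726 at 20 mg/L, and 263, 231 and 272 at 40 mg/L. The loss at 40 mg/L was much larger (log2 -2.13, SE 0.06, adjusted p = 5.83e-25). CDCA3, an adaptor for the destruction of the CDK1 inhibitor WEE1 (-1.06 and -2.39), and CDCA2, which brings a phosphatase to chromatin in anaphase (-0.76 and -1.24), fell in both lines. So did DEPDC1 (-0.99 and -1.395) and DEPDC1B (-0.47 and -1.42).

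Whether the lines responded differently was tested as an interaction, SKOV3 minus A2780, in 1 fit of all 18 libraries. At 20 mg/L 42 genes fell in both lines, and the difference was called for 25. For 19 it was positive, mostly deeper decreases in A2780, and for 6 negative (11% and 10.6% of all genes tested). Without A2780 20 mg/L replicate 1 these counts were 19 and 3. PLK1 (log2 0.74, SE 0.10, adjusted p = 1.96e-07), PIF1 (log2 0.68, SE 0.14, adjusted p = 0.000244), CENPA (log2 0.60, SE 0.15, adjusted p = 0.00245) and CCNB1 (log2 0.55, SE 0.09, adjusted p = 4.16e-06) had fallen further in A2780. CDC20 (log2 0.46, SE 0.12, adjusted p = 0.00413), AURKA (log2 0.41, SE 0.13, adjusted p = 0.0146) and MAD2L1 (log2 0.38, SE 0.12, adjusted p = 0.0222) showed the same order, but AURKA lost its call without A2780 20 mg/L replicate 3 (adjusted p = 0.0981) or SKOV3 20 mg/L replicate 2 (adjusted p = 0.0804), and MAD2L1 without A2780 DMSO replicate 1, A2780 20 mg/L replicate 3 or SKOV3 20 mg/L replicate 2 (adjusted p from 0.0579 to 0.079). NUSAP1 had the most negative difference (log2 -0.99, SE 0.09, adjusted p = 4.15e-11), with opposite signs in the lines.

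At 40 mg/L the called differences all had the same sign. The difference was negative for 52 of the 54 genes and positive for none (15.7% and 14.3% of all genes), at least 2-fold for 30 (4.18%), with a median of -1.04. DLGAP5 (log2 -2.64, SE 0.10, adjusted p = 1.7e-22), PIF1 (log2 -2.56, SE 0.18, adjusted p = 2.53e-14), HMMR (-2.45), FAM72C (-2.32) and PSRC1 (-2.18) were lowest. Even PLK1, whose 20 mg/L response was deeper in A2780, had fallen further in SKOV3 (log2 -1.001, SE 0.10, adjusted p = 2.99e-10). BUB1 (-1.92), NUSAP1 (-1.91), TOP2A (-1.75), AURKA (-1.60), CCNB1 (-1.48), CENPA (-1.46), CDC20 (-1.29), FOXM1 (-1.19), AURKB (-0.81) and CDK1 (-0.76) followed. MYBL2 had a small difference (log2 -0.36, SE 0.12, adjusted p = 0.0196) that was lost without A2780 DMSO replicate 2 or 3, A2780 40 mg/L replicate 2 or SKOV3 DMSO replicate 3 (adjusted p from 0.059 to 0.0726). Only BORA (log2 -0.15, SE 0.19, adjusted p = 0.603) and MAD2L1 (log2 -0.14, SE 0.13, adjusted p = 0.444) were not called. In all, 4 genes rose in A2780 and fell in SKOV3 at this dose: NUSAP1, SPC24, SPC25 and CKAP2L. Across the 54 genes, which are not independent and share the libraries, the log2 changes of the lines correlated with a Pearson r of 0.768 at 20 mg/L and 0.715 at 40 mg/L (Spearman 0.771 and 0.733), against 0.106 and 0.317 over 18806 genes tested in both lines.

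**Figure D4:**
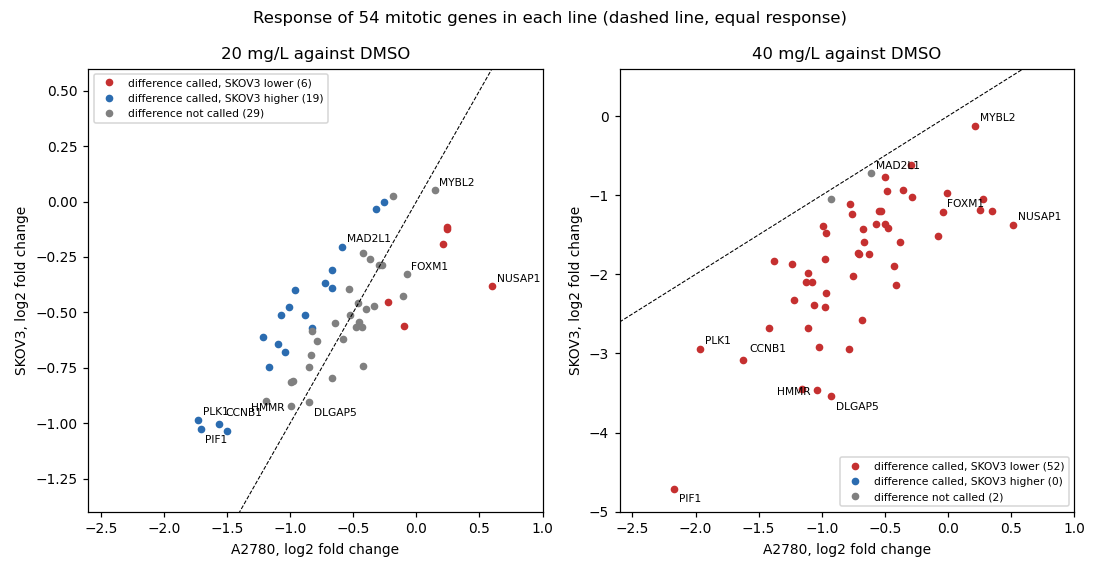
Log2 change from DMSO in A2780 (x axis) and SKOV3 (y axis) for each of the 54 genes at 20 mg/L and 40 mg/L; the dashed line marks equal responses and colours mark the interaction call. At 20 mg/L points lie on both sides of the line (19 called above, 6 below), and at 40 mg/L 52 are called below it.

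Other mitotic and cell cycle genes were followed as lists. The counts that follow, at 40 mg/L unless stated, stand against 19.2% of all genes called lower and 17.7% higher in A2780, and 25.6% lower and 26.4% higher in SKOV3. All 12 mitotic kinesins of the list fell at 40 mg/L in SKOV3 and 11 of 12 in A2780. Their median log2 change was -1.32 in SKOV3 and -0.71 in A2780, against 0.01 and -0.01 over all genes. The called kinesins ranged from the midzone kinesin KIF20A (-2.05 in A2780 and -3.63 in SKOV3) to KIFC1 in A2780 (-0.23) and KIF15 in SKOV3 (-1.05). Among 29 other kinetochore genes 6 fell and 10 rose in A2780 (median 0.09), while 18 fell and 6 rose in SKOV3 (median -0.28). The count lower in A2780 and the count higher in SKOV3 were near or below those shares. SPDL1, which recruits dynein, was lowest in both lines (-0.53 and -1.23). Of 20 condensin and cohesin genes, 5 fell and 6 rose in A2780, with as many values above 0 as below, and 15 fell and 1 rose in SKOV3, where the condensin subunit NCAPD2 was lowest (-1.60). Of the 17 APC/C genes, 6 were lower and 2 higher in A2780 (median -0.01), the count higher being below the share of all genes. In SKOV3 the counts, 5 lower and 4 higher (median 0.01), were near the shares of all genes. The E2 enzyme UBE2S was lowest in both (-0.84 and -1.49), and in SKOV3 the subunit ANAPC15 (-0.90) and the APC/C inhibitor FBXO5 (-0.64) also fell while the subunit ANAPC2 rose (0.34). Among mitotic entry and exit regulators, 7 of 17 fell and 3 rose in A2780, and 10 of 18 fell and 4 rose in SKOV3. The counts higher were near or below the shares of all genes in both lines. Cyclin F, CCNF, was lowest in both (-0.95 and -1.47), while the mitotic entry kinase MASTL was highest in A2780 (0.49) and the phosphatase CDC25A in SKOV3 (0.79).

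Genes switched on by E2F at the start of S phase were mostly higher in SKOV3. There 17 of 22 rose and none fell at 20 mg/L (median 0.40, with 5.16% of all genes called higher), and 15 rose and 2 fell at 40 mg/L (median 0.38, 26.4% and 25.6% of all genes), among them the cyclin E gene CCNE2 (1.48). In A2780 5 rose and 5 fell at 40 mg/L (median 0.02), close to the 17.7% and 19.2% of all genes, with CCNE2 highest (1.32) and the replication factor GINS2 lowest (-0.72). In the list of DREAM and MuvB genes and their regulators, 6 of 14 rose and 3 fell in A2780, and 6 rose and 5 fell in SKOV3. The count lower in A2780 was near the share of all genes. The retinoblastoma gene RB1 rose in A2780 (0.45) and fell in SKOV3 (-0.44), and CDKN1A, the CDK inhibitor p21, rose most (1.73 in A2780 and 0.92 in SKOV3). CDKN1A averaged 8.55 CPM in DMSO, 22.7 at 20 mg/L and 28.3 at 40 mg/L in A2780, and 3.82, 4.54 and 7.27 CPM in SKOV3.

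**Figure D5:**
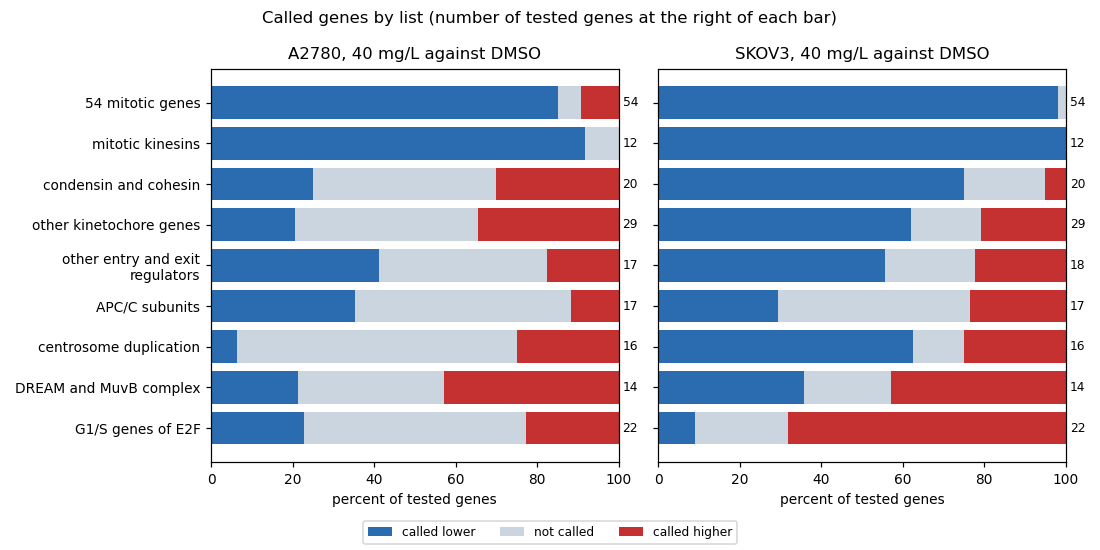
Percent of the tested genes of each list called lower, not called and called higher at 40 mg/L against DMSO in A2780 (left) and SKOV3 (right), with the number tested at the right of each bar. The 54 mitotic genes and the 12 kinesins are almost wholly lower, and the 22 G1/S genes are mostly higher in SKOV3.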

How the data were processed

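Per the file headers, the authors deposited raw read counts for each gene with its coordinates and exonic length. Trimmomatic 0.36 and build GRCh38 come from the submitters' processing notes. The aligner, the counting program, the annotation and the strand setting: not given in the sources used here. The library kit was stranded, per the labels. Between 74.272% and 76.953% of small counts were even, as when both mates of a pair are counted, so totals overstate fragments. No replicate pair agreed within counting error (chi-square per degree of freedom 5.028 to 34.685). Identifiers that had become dates numbered 28 and were not named.

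Each line was fitted alone (9 libraries) with edgeR 4.0.16 in R 4.3.3: filterByExpr (20593 A2780 and 21936 SKOV3 genes), TMM scaling, robust quasi-likelihood F test, Benjamini-Hochberg adjustment over all genes tested, called under 0.05, two-sided. The line difference and the DMSO comparison came from all 18 libraries (23742 genes). SE was the log2 fold change divided by the root of F. CPM was scaled within a line, and RPKM over 18 libraries. Depth sets counting error only; without molecular identifiers, reads may repeat a molecule. Members and lists were chosen with earlier results of these data known. Values per library are given for 11 members named by choice and for those with the lowest or highest fold change in a comparison, 16 in all. Other lists are named by their called extremes at 40 mg/L, and ANAPC15, FBXO5 and RB1 were added after their values were seen. Comparisons of a line with its DMSO share those libraries. Alternatives were DESeq2 1.42.0, other scalings, filters, groups and left-out libraries. The scripts were tested on simulated data.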

Additional observations from a re-analysis of the deposited data

Results flagged for a closer look

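A tested difference between the responses of the lines drew attention for 25 members at 20 mg/L and 52 at 40 mg/L, from edgeR's quasi-likelihood test of SKOV3 minus A2780 on the log2 scale. At 20 mg/L, where positive values mean a response more negative in A2780, these were PLK1 (0.74), PIF1 (0.68), CENPA (0.60), CCNB1 (0.55), CDC20 (0.46), AURKA (0.41) and MAD2L1 (0.38), and NUSAP1 with the opposite sign (-0.99). At 40 mg/L they were DLGAP5 (-2.64), PIF1 (-2.56), FAM72C (-2.32), BUB1 (-1.92), NUSAP1 (-1.91), TOP2A (-1.75), AURKA (-1.60), CCNB1 (-1.48), CENPA (-1.46), CDC20 (-1.29), FOXM1 (-1.19), PLK1 (-1.001), AURKB (-0.81), CDK1 (-0.76) and MYBL2 (-0.36). For PLK1, PIF1, CENPA, CCNB1, CDC20 and AURKA the sign of the difference turned between the doses.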

How the results depend on the processing

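No called value reversed direction under any alternative, and no gained call had the opposite sign. Of 10044 values of single members under alternatives, 9845 kept their side of the threshold, 154 lost a call and 45 gained one. Direction was not compared for values uncalled in both fits. The number of members called moved past 1.5-fold only for 40 against 20 mg/L in A2780, with 6 to 11 called when 1 library was left out, against 11. With 1 library left out, called members numbered 46 to 49 and 48 to 51 in A2780 at 20 and 40 mg/L, 43 to 48 and 53 to 54 in SKOV3, 53 to 54 between the SKOV3 doses, 19 to 27 and 51 to 52 for the difference between lines at 20 and 40 mg/L, and 50 to 53 between the DMSO groups. Without TMM scaling, the median of all genes at 20 mg/L in A2780 moved from 0.0082 to 0.1032. There 41 members were called lower and 5 higher, with a member median of -0.52. In SKOV3 at 20 mg/L the same setting gave 43 lower. The main fit had 46 lower at this dose in each line. Same-numbered replicates did not deviate together (correlations -0.059 to 0.027 in A2780 and -0.021 to 0.051 in SKOV3). Whether they shared a culture or a day cannot be told from this. With the replicate number as a block, 48, 51, 47 and 54 members were called in A2780 at 20 and 40 mg/L and in SKOV3 at 20 and 40 mg/L, 10 and 54 between the doses, 25 and 52 for the difference between lines, and 49 between the DMSO groups. With 3 libraries a group, small changes such as those of CDK1 and MYBL2 in A2780 sit at the limit of what the spread allows.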

Other observations

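Of the 16 centrosome duplication genes tested, 4 rose and 1 fell at 40 mg/L in A2780, where NEDD1, which brings the microtubule nucleator to centrosomes, was highest (log2 0.55, SE 0.09) and the scaffold PCNT lowest (-0.35, SE 0.07). Of all genes, 17.7% were called higher and 19.2% lower there, and 26.4% and 25.6% in SKOV3. In SKOV3 10 fell and 4 rose, with the centriole protein STIL lowest (-0.51, SE 0.08) and the augmin subunit HAUS5 highest (0.45, SE 0.08). G1 cyclins and kinases gave 2 higher and 3 lower in each line, of 7 tested in A2780 and 8 in SKOV3. Cyclin D1, CCND1, was lowest in A2780 (-0.53, SE 0.07) and cyclin D2, CCND2, in SKOV3 (-1.26, SE 0.09).

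Copies of FAM72C were listed separately in the table, and FAM72B and FAM72D are given here. FAM72A is not described. FAM72B averaged 13.8 CPM in DMSO, 7.85 at 20 mg/L and 5.86 at 40 mg/L in A2780, and 24.1, 15.8 and 2.53 CPM in SKOV3. FAM72D averaged 12.9, 8.33 and 6.47 CPM in A2780 and 17.96, 11.3 and 2.35 CPM in SKOV3. Both were lowest at 40 mg/L, as FAM72C was, and the counting of reads that fit more than 1 copy is not given in the sources used.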
